A study of Macaca mulatta with 38 samples.

Results

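The genes described here are 10 genes of the excitatory lineage of the cerebral cortex: EOMES, NEUROG1, NEUROG2, NEUROD1, NEUROD2, NEUROD4, NEUROD6, PPP1R17, SLC17A6 and SLC17A7. They were taken by name from a count table of 34619 genes, and all 10 were in it. The libraries were 38 bulk poly(A) RNA-seq libraries of wild-type rhesus macaque (Macaca mulatta) neural stem cells, dissociated from fetal cortex and grown in dishes coated with polyornithine and fibronectin at reduced oxygen. There were 4 culture series, namely E77 Frontal and E77 Occipital with 10 libraries each, and E42 Anterior and E42 Posterior with 9 libraries each, where E is the embryonic day of the tissue. Every series had FGF2, a growth factor that keeps neural stem cells dividing, up to day 5 in vitro. FGF2 was then withdrawn and the cells were moved to NeuroBasal medium with B27, BDNF and NT-3, in which they differentiate. The days fall into a stem phase (days 1, 3 and 5), a transition phase (days 6, 7 and 8) and a terminal phase (days 11, 14 and 17, with day 20 at E77). A series had a single library for each day, made from the RNA of 2 wells. No label says that the days of a series came from separate animals, so all p-values measure the spread between days of a culture.

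The neurogenins and NeuroD proteins are basic helix-loop-helix (bHLH) transcription factors, which bind DNA as pairs with E proteins and are held back by ID and HES proteins. In the dorsal telencephalon, neurogenins commit radial glia to an excitatory neuron fate, EOMES (also called TBR2) marks the intermediate progenitors that follow, and NeuroD factors act in late progenitors and newborn neurons. Glutamatergic neurons then load transmitter into vesicles with the transporters that SLC17A6 (VGLUT2) and SLC17A7 (VGLUT1) encode. PPP1R17, a phosphatase inhibitor first known from cerebellar Purkinje cells, marks intermediate progenitors in human fetal cortex.

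Total counts ran from 20149635 to 56363300 a library, so that 1 count was worth 0.0188 to 0.0491 CPM, a count scaled to library size. Levels below are CPM scaled with TMM, a correction for library composition, unless the authors' RPKM, which also divides by gene length, is named. RPKM is used wherever 2 genes are compared. The libraries of E42 Anterior stood apart in marker genes of other cells. A list of 7 mesenchyme genes (collagens among them) summed to 13900 to 39300 CPM there, against 47.9 to 354 CPM in the other series. In the same libraries 6 Cajal-Retzius genes summed to 59.5 to 688 CPM, against 3.83 to 200 CPM elsewhere, and these ranges overlapped. CALB2 alone had 28.2 to 620 CPM in E42 Anterior. RELN and EBF3 also had their highest values there, at 64 and 25.8 CPM. TP73 was highest in E77 Frontal (9.16 CPM, against 4.6 CPM in E42 Anterior), and LHX1 and LHX5 did not exceed 0.47 CPM in any series. A list of 6 sensory ganglion and placode genes summed to 28.7 to 84.9 CPM, against 0.665 to 23 CPM elsewhere. The part of such cells in the levels below was not tested. A list of 9 neuronal genes was high in every series, at 3790 to 4570 CPM in the terminal phase of E77 Frontal, 3830 to 4740 CPM in that of E77 Occipital, 4220 to 4820 CPM in that of E42 Anterior and 5250 to 6200 CPM in that of E42 Posterior. This sum is carried by DCX and MAP2 (medians of 1430 and 1590 CPM in E77 Occipital), and single genes of the list differed. RBFOX3 reached 4.21 CPM in E77 Frontal, 0.698 CPM in E77 Occipital, 12.9 CPM in E42 Anterior and 23.8 CPM in E42 Posterior. NEFM, in contrast, was highest in E77 Occipital, at up to 649 CPM. Lists of 5 blood genes and 5 microglial genes stayed at or under 0.114 CPM and 1.24 CPM in sum. In bulk RNA, fewer cells of a type and less RNA per cell cannot be told apart.

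**Figure D1:**
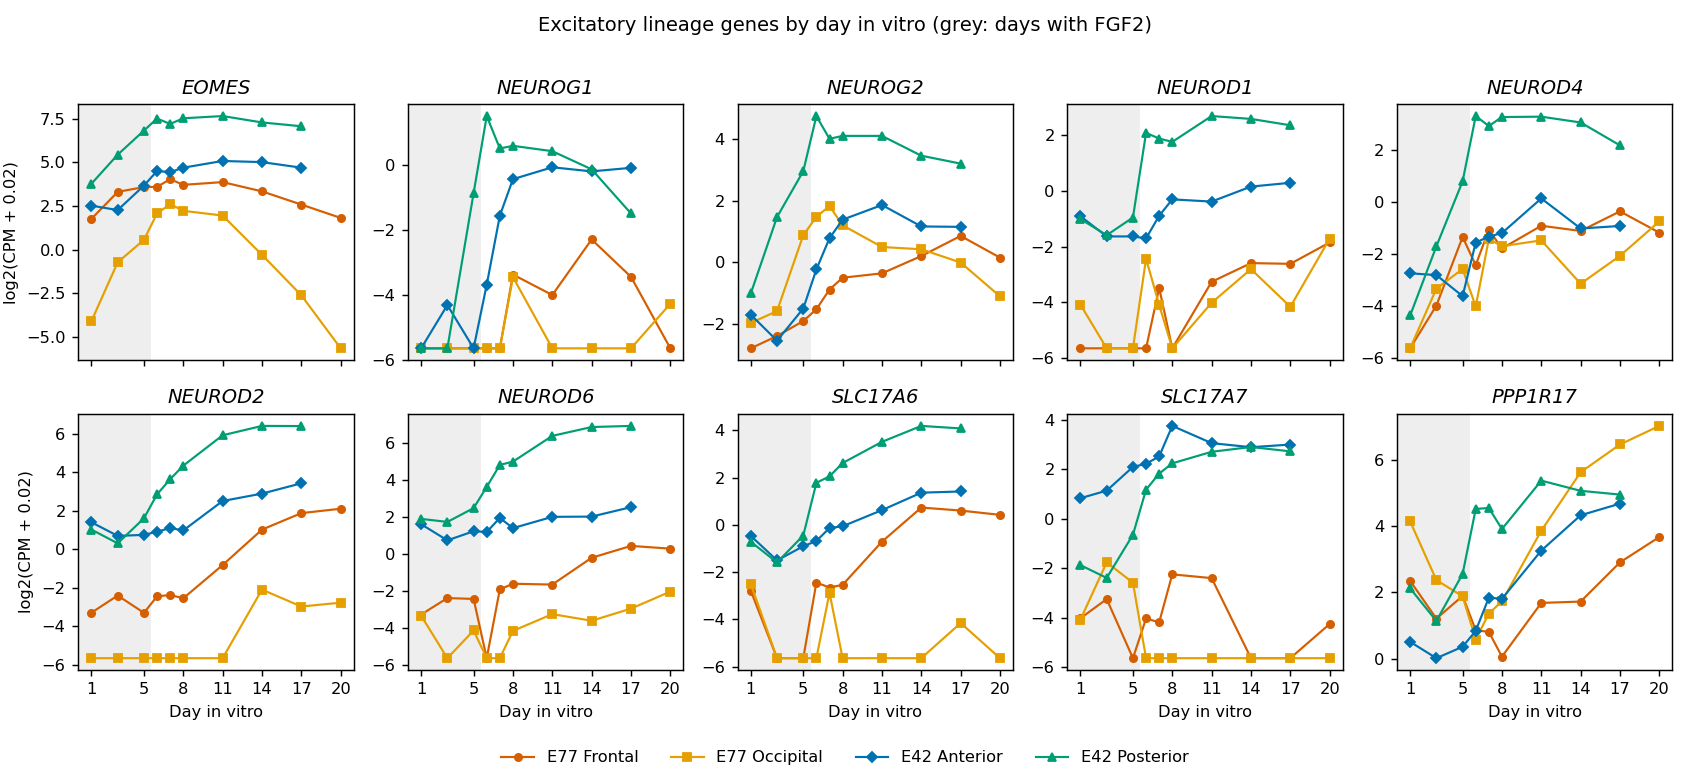
Level of each gene by day in vitro in the E77 Frontal, E77 Occipital, E42 Anterior and E42 Posterior series, as log2(CPM + 0.02), with 1 point per library and the days with FGF2 in grey; points on the floor of a panel are libraries with 0 counts. E42 Posterior lies above the other series for most genes, but not for SLC17A7, which was higher in E42 Anterior on 8 of 9 days, nor for late PPP1R17, with 129 CPM on day 20 of E77 Occipital.

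From the stem to the terminal phase, averaged over the 4 series, 9 of the 10 genes rose, none fell, and SLC17A7 did not pass the test (adjusted p = 0.658). Over all 20794 genes tested, 31.9% were called higher in this comparison, 30.4% lower and 62.4% in either direction, so a call alone is common here. The median log2 fold change was 2.45 over the 6 genes that could be given one, and 0 over all genes tested. The other 4 genes had a group in which every library was at 0, which leaves a fold undefined. The SLC17A6 rise (2.41 ± 0.88, adjusted p = 0.0176) was lost without E77 Occipital day 17, whose 1 count is the only one of its terminal phase, and without E42 Anterior (2.49, adjusted p = 0.0599). The gains came in steps. In the transition phase against the stem phase 6 of 10 genes rose (EOMES, NEUROG1, NEUROG2, NEUROD1, NEUROD4 and SLC17A6), where 21.6% of all genes were called higher. The SLC17A6 call of this step (1.28 ± 0.48, adjusted p = 0.033) was lost without any 1 of 5 E77 libraries: stem days 3 and 5 of each series, or E77 Occipital day 7 (0.43). In the terminal phase against the transition phase 4 of 10 rose (NEUROD1, NEUROD2, NEUROD6 and PPP1R17), against 22.7% of all genes. Of the 10 genes, NEUROD1 alone was called in both steps. NEUROD6, at a log2 fold change of 0.49 ± 0.77 (SE), and PPP1R17, at 0.11 ± 0.32, did not pass in the first step, and EOMES, at -0.63 ± 0.33, and NEUROG2, at -0.07 ± 0.30, did not pass in the second. Without E77 Occipital day 11 the EOMES value of the second step was -1.08 and passed (adjusted p = 0.00881). NEUROD2 could not be assessed in the first step, because every stem and transition library of E77 Occipital was at 0.

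The series differed in how many genes moved. Terminal libraries were higher than stem libraries for 5 of 10 genes in E77 Frontal (22.5% of all genes were called higher there), for 2 in E77 Occipital (21.6%), for 10 in E42 Anterior (17.9%) and for 9 in E42 Posterior (21.5%). In E77 Occipital 1 gene, SLC17A7, was lower (19.6% of all genes were called lower). Terminal and stem values did not overlap for 6 genes in E77 Frontal, 1 in E77 Occipital, 10 in E42 Anterior and 9 in E42 Posterior, where 43.9%, 36.7%, 48.6% and 52.3% of all genes did not overlap. The count in E42 Anterior is sensitive to single days: without 1 of its 6 stem and terminal libraries it was 6 to 8. In E77 Occipital it was 1 to 4 of both directions together. NEUROG1, NEUROD1 and SLC17A7 never reached 10 counts in a library at E77, where their highest counts were 5, 9 and 7, and entered the test through E42 libraries.

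**Figure D2:**
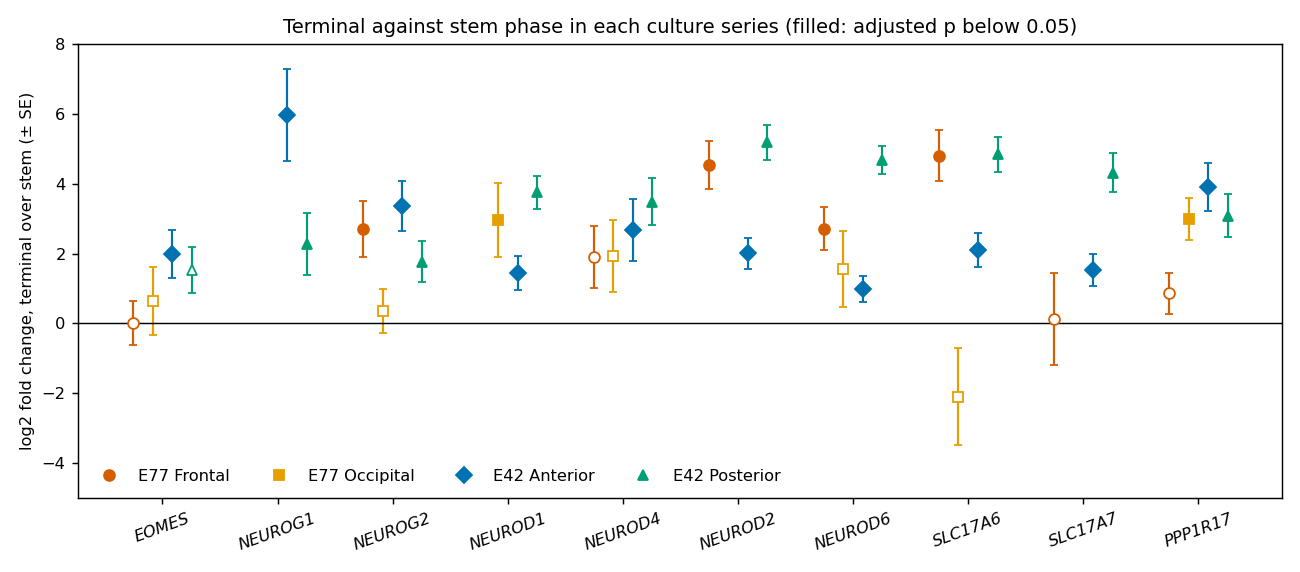
Log2 fold change of the terminal over the stem phase for each gene in each series, with the standard error; filled points passed at an adjusted p below 0.05, and genes with a group at 0 counts have no point. Of the folds shown for E42 Posterior the largest are NEUROD2, SLC17A6 and NEUROD6 (5.19, 4.84 and 4.68), while E77 Occipital shows called rises for PPP1R17 and NEUROD1, the second on at most 9 counts a library.

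The neurogenins start the cascade. NEUROG2 was low in absolute terms outside E42 Posterior, and NEUROG1 was low in every series, at no more than 2.79 CPM in any library. NEUROG2 had 0.759, 1.13, 1.79 and 1.09 CPM on days 11, 14, 17 and 20 of E77 Frontal, against 0.124, 0.17 and 0.246 CPM on days 1, 3 and 5. In E42 Anterior it had 3.61, 2.22 and 2.2 CPM on days 11, 14 and 17, against 0.287, 0.151 and 0.333 CPM on the stem days. In E42 Posterior the terminal values were 17.2, 11 and 9.2 CPM, against stem values of 0.476, 2.75 and 7.76 CPM. No terminal value fell into the stem range in these 3 series, and each rise passed, by 2.70 ± 0.80, 3.36 ± 0.72 and 1.77 ± 0.58 on the log2 scale (adjusted p = 0.00722, 0.000581 and 0.015). The call in E42 Posterior was lost without the library of day 1 (1.19, adjusted p = 0.0861), day 3 or day 11. In E77 Occipital the terminal values were 1.39, 1.32, 0.974 and 0.444 CPM, against stem values of 0.235, 0.313 and 1.82 CPM, and the groups overlapped (0.36 ± 0.63, adjusted p = 0.686). Its highest NEUROG2 level was on day 7, at 3.53 CPM.

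NEUROG2 had its peak within days of FGF2 withdrawal in E77 Occipital and E42 Posterior. In E42 Posterior it had 26.9 CPM on day 6, the highest of the 38 libraries, against 7.76 CPM a day earlier. NEUROG1 peaked on the same day there, with 2.79 CPM, and the bHLH gene NEUROD4, with 9.8 CPM. In E42 Anterior the same 3 genes had their highest values on day 11, at 3.61 CPM for NEUROG2, 0.924 CPM for NEUROG1 and 1.07 CPM for NEUROD4.

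NEUROG1, the paralog of NEUROG2, was nearly silent in the stem phase of all series. Its stem libraries had 0 counts on all 3 days in E77 Frontal and E77 Occipital, on days 1 and 5 in E42 Anterior, and on days 1 and 3 in E42 Posterior. At E42 it had 0.924, 0.845 and 0.913 CPM on the terminal days of E42 Anterior, against 0, 0.0302 and 0 CPM on the stem days. The E42 Posterior series had 1.31, 0.884 and 0.333 CPM, against 0, 0 and 0.525 CPM, and overlapped. Both rises passed (5.96 ± 1.31, adjusted p = 0.00088, and 2.28 ± 0.89, adjusted p = 0.0424), but that of E42 Anterior rests on 1 count in the stem phase. That of E42 Posterior was lost without any 1 of days 1, 3, 11 and 14. At E77, 19 of 20 libraries had 3 or fewer NEUROG1 counts and 14 had 0. E42 Anterior is also the series in which the sensory ganglion and placode genes were high, tissues where neurogenins act too, and their part was not tested.

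EOMES, the marker of intermediate progenitors, was the most abundant of the 10 genes per length in E42 Posterior until day 11, at 55.1 RPKM. In that series it had 201, 156 and 134 CPM on the terminal days, against 13.7, 43.4 and 113 CPM on the stem days. The groups did not overlap, but the rise did not pass (1.53 ± 0.65, adjusted p = 0.0607); without stem day 5 it was 2.52 and passed (adjusted p = 0.00811). Much of the gain came with FGF2 still present: day 5 stood 8.25-fold over day 1 in these 2 libraries. In E42 Anterior EOMES had 33.8, 32.3 and 25.9 CPM on the terminal days, against 5.72, 4.8 and 12.7 CPM on the stem days, and rose by 1.99 ± 0.68 (adjusted p = 0.0231). That call was lost without stem day 1 or 3, or terminal day 11.

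At E77 the EOMES level went up and came down within the culture period. E77 Frontal had 3.39, 9.9 and 12 CPM on days 1, 3 and 5, then 12.1, 16.4 and 13.1 CPM on days 6, 7 and 8, and 14.6, 10.1, 5.98 and 3.51 CPM on days 11, 14, 17 and 20. E77 Occipital had 0.0391, 0.587 and 1.46 CPM in the stem phase, 4.2, 6.09 and 4.66 CPM in the transition phase, and 3.86, 0.797, 0.144 and 0 CPM in the terminal phase. Both series were highest on day 7, and their last library, of day 20, stood at 0.214 of the peak in E77 Frontal and at 0 in E77 Occipital. At E42 the last library, of day 17, still stood at 0.767 of the peak in E42 Anterior and at 0.668 in E42 Posterior. On the shared day 17 E77 Frontal had 5.98 CPM, against its peak of 16.4 CPM, and E77 Occipital had 0.144 CPM, against 6.09 CPM. Terminal and stem phases therefore overlapped at E77, with log2 fold changes of 0.01 ± 0.64 in E77 Frontal and 0.65 ± 0.98 in E77 Occipital (adjusted p = 0.996 and 0.625). In E77 Occipital the direction turned without the library of day 11 (-1.12). The mean rise over the 4 series, 1.04 ± 0.37 (adjusted p = 0.0161), did not pass without E77 Occipital day 11 (0.60, adjusted p = 0.17), without E42 Anterior (0.71, adjusted p = 0.216) or without the 4 libraries of day 1 (0.63, adjusted p = 0.123).

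NEUROD1 and NEUROD4 act between progenitor and neuron, and both were low at E77, NEUROD1 close to the limit of detection. NEUROD1 had 5.8 ± 0.668 CPM in the terminal libraries of E42 Posterior and 0.428 ± 0.1 CPM in its stem libraries (SD, n = 3 each), a rise of 3.75 ± 0.47 (adjusted p = 6.68e-07). In E42 Anterior it had 1.01 ± 0.235 CPM and 0.372 ± 0.121 CPM (1.44 ± 0.48, adjusted p = 0.0195), a call lost without any 1 of stem days 3 and 5 and terminal days 14 and 17. Neither series overlapped between the phases. At E77 14 of 20 libraries had 3 or fewer NEUROD1 counts; E77 Frontal had 0 in its 3 stem libraries and 0.158 ± 0.0723 CPM in its 4 terminal ones (adjusted p = 0.00247). In E77 Occipital the call (2.96 ± 1.05, adjusted p = 0.0249) rested on the day 20 library, without which it was 2.14 (adjusted p = 0.143), and it was also lost without stem day 3 or 5.

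NEUROD4 reached 7.45 ± 2.68 CPM in the terminal libraries of E42 Posterior, against 0.671 ± 0.901 CPM in the stem libraries, and rose by 3.49 ± 0.67 (adjusted p = 0.000145). In E42 Anterior it was lower, at 0.682 ± 0.339 CPM in the terminal and 0.103 ± 0.037 CPM in the stem libraries (2.67 ± 0.88, adjusted p = 0.0183, lost without stem day 5 or terminal day 11). Neither E77 series passed, at 1.90 ± 0.88 in E77 Frontal and 1.94 ± 1.03 in E77 Occipital, with no library over 0.752 CPM. In E77 Frontal the 2 phases did not overlap, and the rise was 4.4 and passed (adjusted p = 0.0126) without stem day 5.

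NEUROD2 and NEUROD6, factors of postmitotic projection neurons, had their highest levels in the terminal phase of each series. In E42 Posterior NEUROD2 had 60.2, 84.3 and 83.8 CPM on the terminal days, against 2.01, 1.22 and 3.03 CPM on the stem days, a log2 fold change of 5.19 ± 0.50 (adjusted p = 2.76e-08). NEUROD6 had 82.6, 115 and 120 CPM, against 3.67, 3.27 and 5.5 CPM (4.68 ± 0.39, adjusted p = 8.34e-10). For both genes the terminal and stem values of E42 Posterior lay far apart. From day 14 on NEUROD6 passed EOMES per length in this series, with an EOMES to NEUROD6 ratio of 13.2 on day 5, 1.56 on day 11, 0.868 on day 14 and 0.715 on day 17 (RPKM over RPKM).

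The same 2 genes were present but flatter in E42 Anterior. NEUROD2 had 5.66, 7.38 and 10.7 CPM on its terminal days, against 2.62, 1.6 and 1.66 CPM on the stem days (2.01 ± 0.45, adjusted p = 0.00111). NEUROD6 had 3.96, 4 and 5.7 CPM, against 3, 1.63 and 2.3 CPM (0.98 ± 0.37, adjusted p = 0.0395). The NEUROD6 call was lost when any library but that of stem day 1 was left out.

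At E77 both genes were low, and the rise was called in E77 Frontal. NEUROD2 in E77 Frontal had 0.548, 2.01, 3.65 and 4.28 CPM on the terminal days, against 0.0826, 0.17 and 0.0821 CPM on the stem days (4.53 ± 0.68, adjusted p = 7.66e-06). NEUROD6 had 0.295, 0.84, 1.32 and 1.19 CPM, against 0.0826, 0.17 and 0.164 CPM (2.71 ± 0.62, adjusted p = 0.000705). Both genes were thus higher in each terminal library of E77 Frontal than in any stem library. In E77 Occipital NEUROD2 had 0 counts on all 7 days up to day 11 and 0.215, 0.108 and 0.127 CPM on days 14, 17 and 20 (adjusted p = 0.0544), and NEUROD6 did not exceed 0.222 CPM on any day (1.56 ± 1.09, adjusted p = 0.264). The rises of E77 Frontal and E77 Occipital were not shown to differ (adjusted p = 0.813 for NEUROD2, and 1.14 ± 1.36, adjusted p = 0.729, for NEUROD6). In the stem phase NEUROD2 was at least 54-fold lower in E77 Occipital than in E42 Posterior, and in the transition phase at least 326-fold lower, taking 3 counts over the group as its limit.

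**Figure D3:**
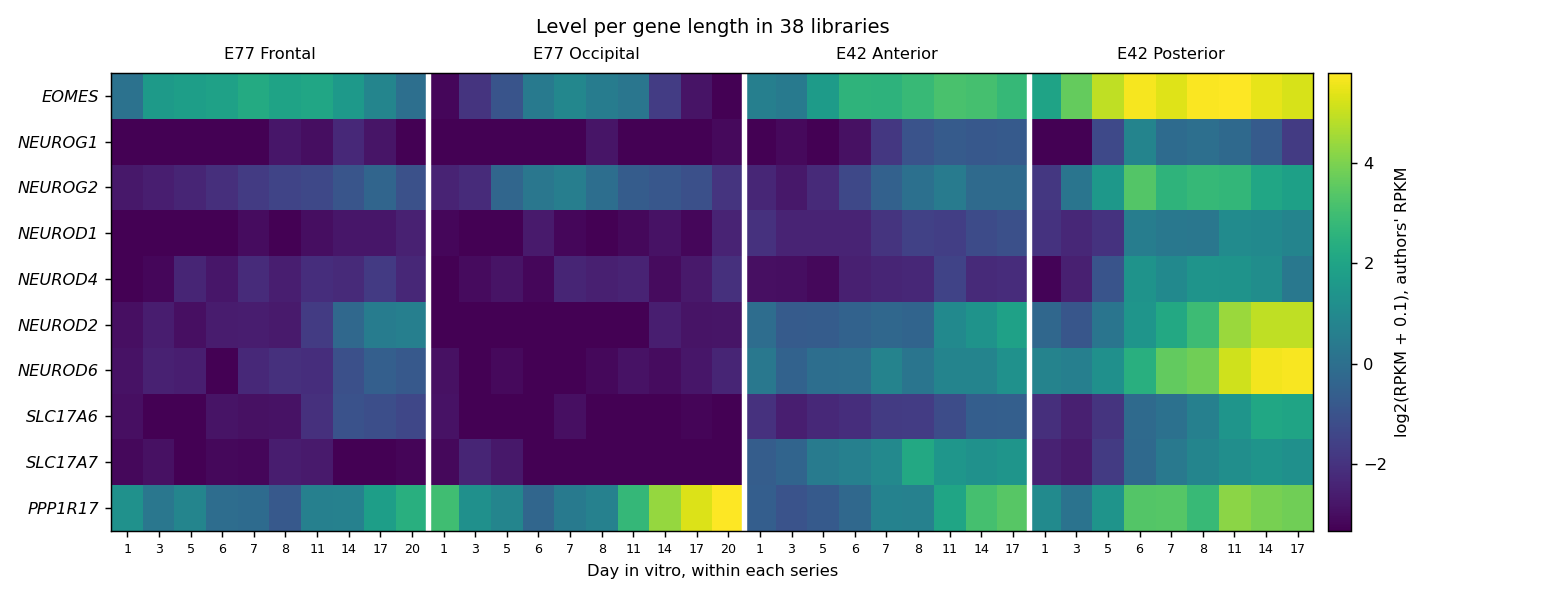
Level per gene length of the 10 genes in all 38 libraries, as log2(RPKM + 0.1) of the authors' RPKM, with the days of each series from left to right. EOMES fades on the late days of both E77 series, NEUROD2 and NEUROD6 are brightest late in E42 Posterior, and the brightest cell of E77 Occipital is PPP1R17 on day 20, at 55.1 RPKM.

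The 2 vesicular glutamate transporter genes, which mark neurons that release glutamate, behaved differently from each other at E42. SLC17A6 had 11.4, 18.2 and 16.9 CPM on the terminal days of E42 Posterior, against 0.588, 0.312 and 0.711 CPM on the stem days (4.84 ± 0.50, adjusted p = 2.76e-08). In E42 Anterior it had 1.52, 2.55 and 2.64 CPM, against 0.703, 0.332 and 0.514 CPM (2.11 ± 0.48, adjusted p = 0.000976). Terminal values were above stem values in each case. SLC17A7 reached like levels in both E42 series, with 8.32, 7.42 and 7.99 CPM on the terminal days of E42 Anterior and 6.52, 7.46 and 6.6 CPM on those of E42 Posterior. Their stem values differed, at 1.76, 2.18 and 4.26 CPM in E42 Anterior and 0.252, 0.17 and 0.618 CPM in E42 Posterior, so the rise was 1.53 ± 0.47 in E42 Anterior (adjusted p = 0.0127, lost without stem day 1 or 3) and 4.31 ± 0.56 in E42 Posterior (adjusted p = 1.87e-06). E42 Anterior had 13.5 CPM on day 8, its highest SLC17A7 value.

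Per length, SLC17A7 stood 3.66 to 21 times over SLC17A6 in every E42 Anterior library, with the top ratio on day 8. In E42 Posterior the ratio lay between 0.574 and 1.27, and it was lowest on the last days, at 0.6 on day 14 and 0.574 on day 17. The ranges of the 2 series did not overlap.

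**Figure D4:**
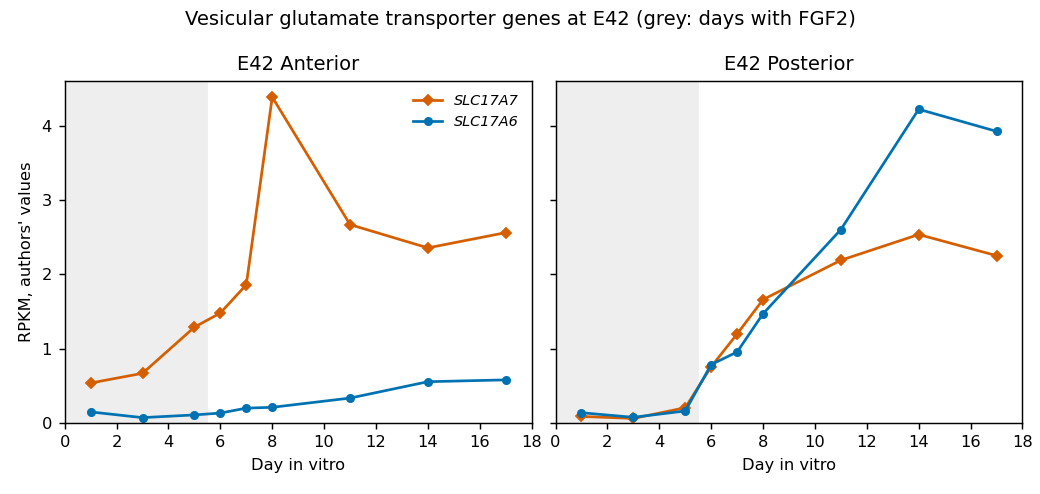
The authors' RPKM of SLC17A7 and SLC17A6 by day in vitro at E42, on a linear scale, with 1 point per library and the days with FGF2 in grey. SLC17A7 lies over SLC17A6 on all days of E42 Anterior, while in E42 Posterior the lines run together up to day 8 and SLC17A6 is the higher one from day 11.

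At E77 SLC17A6 was found above a few counts in E77 Frontal alone, with 0.59, 1.64, 1.5 and 1.32 CPM on the terminal days, against 0.124, 0 and 0 CPM on the stem days (4.80 ± 0.73, adjusted p = 5.17e-06, on 3 stem counts). E77 Occipital had 8 SLC17A6 counts over its 10 libraries, 1 of them in the terminal phase. SLC17A7 had 10 of 20 E77 libraries at 0 and at most 7 counts in any. E77 Occipital had 12 SLC17A7 counts in all, each from the stem phase, and the terminal phase, at 0 in 4 of 4 libraries, was called lower (adjusted p = 0.00805). In that phase SLC17A7 was at least 302-fold lower in E77 Occipital than in E42 Anterior, and at least 262-fold lower than in E42 Posterior.

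PPP1R17 was higher in the terminal phase of both E42 series and of E77 Occipital. In E42 Anterior it had 9.57, 20 and 25.5 CPM on the terminal days, against 1.41, 0.997 and 1.27 CPM on the stem days (3.90 ± 0.68, adjusted p = 5.86e-05). In E42 Posterior it had 41.2, 33.3 and 30.8 CPM, against 4.34, 2.19 and 5.87 CPM (3.09 ± 0.62, adjusted p = 0.000258). Neither pair of groups overlapped. On day 6, the first without FGF2, E42 Posterior already stood at 22.8 CPM, whereas E42 Anterior stood at 1.78 CPM.

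Both E77 series began at an intermediate PPP1R17 level, had a low in the transition phase and were highest on day 20. E77 Occipital had 17.6, 5.16 and 3.68 CPM on days 1, 3 and 5, then 1.48, 2.56 and 3.31 CPM, and then 14.5, 49.1, 87.6 and 129 CPM on days 11 to 20. E77 Frontal had 5.08, 2.3 and 3.7 CPM, then 1.8, 1.74 and 1.03 CPM, and then 3.2, 3.29, 7.48 and 12.7 CPM. Terminal and stem ranges overlapped in both. The terminal phase was higher in E77 Occipital, by 2.99 ± 0.59 (adjusted p = 0.000192), and did not pass in E77 Frontal (0.86 ± 0.59, adjusted p = 0.242). Per length, PPP1R17 had 20.3, 39.1 and 55.1 RPKM on days 14, 17 and 20 of E77 Occipital, while no other gene of the 10 exceeded 0.458 RPKM, the NEUROG2 level of day 14. On day 20 EOMES and SLC17A6 had 0 counts and NEUROD6 had 0.0914 RPKM.

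The ratio of EOMES to PPP1R17 per length differed between the series. In E42 Posterior it was 12 on day 5, 3.02 on day 11 and 2.7 on day 17. In E42 Anterior it was 6.19, 2.19 and 0.632 on the same days. E77 Frontal had 2.02 on day 5, 2.84 on day 11, 0.496 on day 17 and 0.171 on day 20, and E77 Occipital had 0.246, 0.165 and 0.00102 on days 5, 11 and 17, with EOMES at 0 on day 20.

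**Figure D5:**
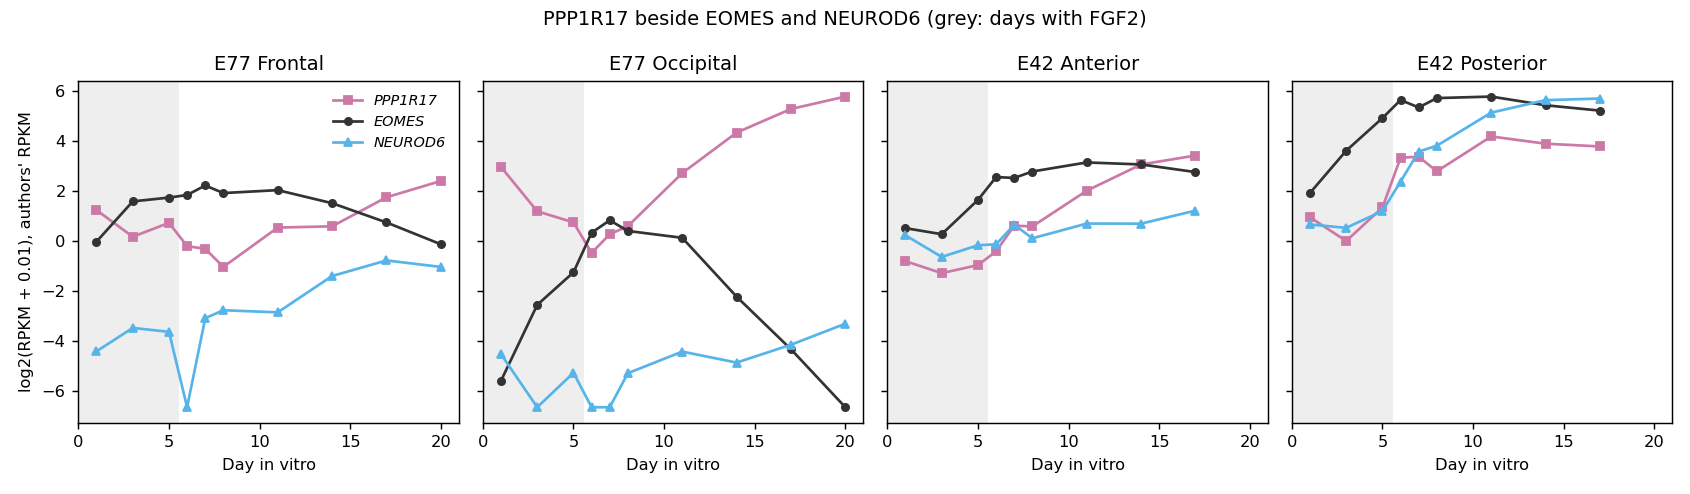
PPP1R17 beside EOMES and NEUROD6 by day in vitro in each series, as log2(RPKM + 0.01) of the authors' RPKM, with the days with FGF2 in grey. In E42 Posterior EOMES lies over PPP1R17 on every day; in E77 Occipital EOMES lies over PPP1R17 on days 6 and 7 alone, and day 20 has 0 counts of EOMES and 55.1 RPKM of PPP1R17.

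Other markers moved in the same E77 Occipital libraries. A list of 6 oligodendrocyte lineage genes summed to 1430 to 3430 CPM in the terminal phase, against 897 to 1040 CPM in the stem phase, with SOX10 at up to 259 CPM and MBP at up to 283 CPM in that series. The 5 astrocyte genes summed to 3440 to 7000 CPM, against 2000 to 2480 CPM, and the 9 neuronal genes to 3830 to 4740 CPM, against 1930 to 2150 CPM. Of the astrocyte genes, GFAP alone had 1700 to 5590 CPM over the 10 libraries. A list of 10 thalamus, midbrain and hindbrain genes summed to 105 to 208 CPM, against 87.1 to 97.2 CPM, of which TCF7L2 alone made up 76.9 to 207 CPM over the 10 libraries, while HOXB3 was at 0 in all 10. The part of these cells in the PPP1R17 level was not tested. PPP1R17 and NEUROD6 lie on the same chromosome (chromosome 3 in the RefSeq gene table of the macaque, used here for neighbours only) with 1 protein-coding gene between them, and no other annotated gene overlapped any of the 10 genes.

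E77 cultures were lower than E42 cultures for most of the lineage. In the stem phase 7 of 10 genes were lower at E77 (31.4% of all genes were called lower) and 1, PPP1R17, was higher (28.8%). All 10 were lower in the transition phase (31.1%) and all 10 in the terminal phase (24.4%; 20.6% of all genes were called higher there). The 3 genes that never reached 10 counts at E77 had to differ to be tested at all. Among the other 7, the counts were 5 lower and 1 higher in the stem phase, 7 lower in the transition phase and 7 lower in the terminal phase. NEUROD6 had 0.516 ± 0.522 CPM at E77 (SD, n = 8) and 55.3 ± 57.1 CPM at E42 (SD, n = 6) in the terminal phase, a log2 difference of -6.26 ± 0.23 (adjusted p = 6.83e-17), after -7.22 ± 0.32 in the transition phase. NEUROD2 differed by -5.83 ± 0.30 and SLC17A6 by -5.59 ± 0.36, while the SLC17A6 ranges of the ages overlapped. EOMES differed by -3.07 ± 0.36 in the stem phase, -2.93 ± 0.29 in the transition phase and -4.34 ± 0.33 in the terminal phase (adjusted p = 3.2e-07, 4.37e-08 and 5.17e-10).

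These age differences average a posterior and an anterior pair, and the pairs were not alike. Between E77 Occipital and E42 Posterior alone the EOMES difference was -6.38 ± 0.59 in the stem phase and -6.99 ± 0.53 in the terminal phase. Between E77 Frontal and E42 Anterior alone it was 0.09 ± 0.30 in the stem phase (adjusted p = 0.82), -0.75 ± 0.28 in the transition phase (adjusted p = 0.0566) and -1.63 ± 0.29 in the terminal phase (adjusted p = 0.00179). NEUROD4 showed the same kind of split, at -5.12 ± 0.46 for the posterior pair and -0.18 ± 0.56 for the anterior pair in the terminal phase (adjusted p = 3.06e-06 and 0.833). NEUROD6 was lower at E77 in both pairs, at -10.25 ± 0.26 in the posterior and -2.51 ± 0.40 in the anterior pair, and so was NEUROD2, at -9.32 ± 0.34 and -2.09 ± 0.30 in the same order. SLC17A6 was lower in the posterior pair (-9.93 ± 0.72, adjusted p = 4.87e-07) and did not pass in the anterior pair (-0.86 ± 0.32, adjusted p = 0.0557). For PPP1R17 the terminal means ran the other way from the fitted difference, at 38.4 ± 47 CPM at E77 and 26.7 ± 11.1 CPM at E42 (SD, n = 8 and 6). The E77 mean includes day 20, at 12.7 CPM in E77 Frontal and 129 CPM in E77 Occipital. Day 20 has no E42 library and had its own block term, so the fitted difference compares days 11, 14 and 17. The fitted difference of -0.90 ± 0.31 (adjusted p = 0.0209) was -1.95 ± 0.28 in the anterior pair and turned to 0.25 ± 0.68 in the posterior pair (adjusted p = 0.835). It was also lost without day in vitro as a block (-0.23 ± 0.38, adjusted p = 0.675) and without any 1 of 4 libraries: day 11 of E77 Occipital, day 14 of E77 Frontal, day 14 of E42 Anterior or day 11 of E42 Posterior. The stem difference of NEUROG2 (-1.36 ± 0.50, adjusted p = 0.0217) missed the threshold without the block (adjusted p = 0.0521), and without E77 Frontal day 5, E77 Occipital day 3, E42 Anterior day 1 or E42 Posterior day 5 (-1.2 to -1). PPP1R17 was higher at E77 in the stem phase (1.25 ± 0.36, adjusted p = 0.0054), by 1.54 ± 0.31 in the anterior pair and by 0.91 ± 0.75 in the posterior pair, where it did not pass (adjusted p = 0.4). Glial markers moved with age: in the terminal phase the 5 astrocyte genes summed to 3440 to 9050 CPM at E77 and 1250 to 2110 CPM at E42. GFAP carried most of this sum. Over all days it had 2670 to 7690 CPM in E77 Frontal, 1700 to 5590 CPM in E77 Occipital, 1310 to 1970 CPM in E42 Anterior and 497 to 1440 CPM in E42 Posterior. The 6 oligodendrocyte lineage genes summed to 450 to 3430 CPM at E77 and 144 to 622 CPM at E42 in the terminal phase. The part of these glial genes, and of the mesenchyme genes in E42 Anterior, in the age differences was not tested.

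Within E42, 9 of 10 genes were lower in E42 Anterior than in E42 Posterior (30.3% of all genes were called lower) and 1, SLC17A7, was higher (25.1%). EOMES had 20.6 ± 10.6 CPM in E42 Anterior and 130 ± 64.1 CPM in E42 Posterior (SD over days, n = 9 each), and was lower on 9 of 9 shared days (-2.61 ± 0.23, adjusted p = 3.22e-09). NEUROG2 (-3.11 ± 0.28) was lower on 9 of 9 days, and NEUROD4 (-3.45 ± 0.34) and NEUROD1 (-1.86 ± 0.24) on 8 of 9 days. NEUROD6 (-2.78 ± 0.14) and PPP1R17 (-1.91 ± 0.27) were lower on 9 of 9 days. NEUROD2 (-2.00 ± 0.19) and SLC17A6 (-1.78 ± 0.21) were lower on 7 of 9 days, and higher in E42 Anterior on days 1 and 3. SLC17A7 was higher in E42 Anterior on 8 of 9 days (1.42 ± 0.20, adjusted p = 4.58e-06). The NEUROG1 difference (-1.93 ± 0.62, adjusted p = 0.0115) was lost without day 5 of either series (-0.45 and -0.11).

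Within E77, 4 genes were higher in E77 Frontal than in E77 Occipital (16.3% of all genes were called higher) and 2 were lower (13.8%). EOMES had 10.1 ± 4.49 CPM in E77 Frontal and 2.18 ± 2.28 CPM in E77 Occipital (SD over days, n = 10 each) and was higher on 10 of 10 days (2.75 ± 0.29, adjusted p = 1.65e-07). NEUROD2 was higher on 10 of 10 days (adjusted p = 0.00017, with 7 E77 Occipital libraries at 0), and NEUROD6 on 9 of 10 (2.72 ± 0.50, adjusted p = 0.000132). SLC17A6 was higher by 2.75 ± 0.65 (adjusted p = 0.00164), on 7 of 10 days, and this call was lost without E77 Frontal day 1, its 1 stem library with a count (1.70). NEUROG2 and PPP1R17 ran the other way, lower in E77 Frontal on 8 of 10 days each, by -1.38 ± 0.34 and -1.72 ± 0.28 (adjusted p = 0.00245 and 4.45e-05). The direction of EOMES and PPP1R17 was thus opposite between E77 Frontal and E77 Occipital, and shared between E42 Anterior and E42 Posterior.

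Whether the terminal against stem change differed between series was tested as a difference of changes. Between E77 and E42, 2 of 10 genes differed, and both had the smaller change at E77 (13.2% of all genes were called lower): PPP1R17, by -2.15 ± 0.48 (adjusted p = 0.00225), and SLC17A7 (adjusted p = 0.0021, with a group at 0). SLC17A7 never exceeded 7 counts at E77 and entered this test through its E42 libraries. For PPP1R17 the call was lost without day as a block (-1.57, adjusted p = 0.0592). For EOMES the difference was -1.26 ± 0.52 and did not pass (adjusted p = 0.0796), but it passed without any 1 of 3 libraries: E77 Occipital day 11 (-1.98), E42 Anterior day 1 (-1.48) or E42 Posterior day 5 (-1.47).

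Between E42 Anterior and E42 Posterior 5 of 10 genes differed, all with the smaller rise in E42 Anterior (6.96% of all genes were called lower). These were NEUROD6 by -3.71 ± 0.33, NEUROD2 by -3.26 ± 0.45, SLC17A7 by -2.77 ± 0.52, SLC17A6 by -2.75 ± 0.52 and NEUROD1 by -2.33 ± 0.59 (adjusted p = 1.2e-07, 6.04e-05, 0.00113, 0.000707 and 0.0105). The NEUROD1 call was lost without E42 Posterior day 1 (-2.06, adjusted p = 0.0744). EOMES at 0.17 ± 0.54, PPP1R17 at 0.59 ± 0.68 and NEUROD4 at -1.23 ± 1.01 did not pass, the last of which was -3.17 and passed without E42 Anterior day 5 (adjusted p = 0.0366). Between E77 Frontal and E77 Occipital, a comparison added after the data had been seen, PPP1R17 rose less in E77 Frontal (-2.18 ± 0.61, adjusted p = 0.0386; 2.94% of all genes were called lower), and this was lost without any 1 of 11 of the 14 libraries. SLC17A6 was called higher (2.7% of all genes) on 4 stem counts and 1 terminal count in E77 Occipital.

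The genes around these 10 in the pathway are given from 5 lists, whose counts stand against 31.9% of all genes called higher and 30.4% lower in terminal against stem libraries. Dorsal progenitor factors, the regulators of cortical radial glia, had 3 genes higher, 5 lower and 1 not passing of 9 in terminal against stem over the 4 series, with a median log2 fold change of -0.54. The homeobox genes EMX1 (-0.88 ± 0.10) and EMX2 (-0.79 ± 0.09), and HOPX (-0.91 ± 0.12), a gene of outer radial glia, fell. Of 14 intermediate progenitor and newborn neuron genes, 4 rose and 5 fell (median -0.52). The Notch ligand gene DLL1 (-1.61 ± 0.12) and the bHLH gene HES6 (-1.43 ± 0.15) fell, while the neuronal RNA-binding protein genes ELAVL2 (1.41 ± 0.14) and ELAVL4 (1.19 ± 0.19) rose. EOMES and PPP1R17, markers of the same stage, are not among these 14.

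Projection neuron genes had 10 of 16 tested higher and 3 lower (median 0.55), against the same 31.9% and 30.4% of all genes. The upper-layer gene CUX2 rose by 2.99 ± 0.21, the bHLH gene BHLHE22 by 3.49 ± 0.38, the activity-linked factor MEF2C by 2.67 ± 0.17 and SLA by 1.86 ± 0.28. These values average the 4 series. Mean SLA was lower in terminal than in stem libraries of E77 Occipital (0.145 and 0.366 CPM). It was higher in those of each other series, with 91.2 and 2.09 CPM in E42 Posterior. In terminal E77 against terminal E42 libraries 10 of these 16 were lower and 1 higher (median -1.60), where 24.4% and 20.6% of all genes were, with CUX2 at 2.47 ± 0.762 CPM at E77 and 54.3 ± 56.7 CPM at E42, and BHLHE22 at 1.58 ± 1.90 CPM at E77 and 42.5 ± 41 CPM at E42 (SD, n = 8 and 6).

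Among 10 bHLH partners and inhibitors, 5 rose and 4 fell from stem to terminal (median 0.39), and 62.4% of all genes changed in either direction. ID1, ID2 and ID3, which hold bHLH factors off DNA, rose by 0.96 ± 0.26, 0.93 ± 0.13 and 1.05 ± 0.27, and the Notch target HES5 fell by 1.96. In terminal E77 against E42 libraries 5 of the 10 were higher (20.6% of all genes were) and none lower (24.4%), with 5 not passing; ID1, ID2 and ID3 were not among those called (adjusted p = 0.91, 0.45 and 0.717). GABAergic lineage genes had 5 of 9 higher and 2 lower from stem to terminal. The progenitor factor GSX2 (-1.78 ± 0.14) fell, and DLX5 (1.51 ± 0.40) and the vesicular GABA transporter SLC32A1 (2.81 ± 0.40) rose. In the terminal phase SLC32A1 stood at 29.9 ± 5.47 CPM in E77 Frontal, 24.8 ± 3.22 CPM in E77 Occipital, 15 ± 0.783 CPM in E42 Anterior and 37.4 ± 5.99 CPM in E42 Posterior (SD, n = 4, 4, 3 and 3). This transcript was thus present in each series, also in E77 Occipital, where SLC17A6 had 1 count in that phase. Terminal E77 and E42 libraries did not pass for SLC32A1 (adjusted p = 0.646), with 27.3 ± 4.99 CPM at E77 and 26.2 ± 12.9 CPM at E42.

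The genes with the most similar course were ranked by Pearson's r of log2 CPM over the 38 libraries, among 13321 named genes with a mean of at least 1 CPM, the 10 genes themselves left out. These libraries share culture series and days, so r describes a common pattern across series as much as within them. BHLHE22 and TBR1, the T-box factor of early-born projection neurons, were among the closest 4 for NEUROD2 (r = 0.98 and 0.947), NEUROD6 (0.959 and 0.948) and SLC17A6 (0.929 and 0.947). SLA was shared by NEUROD2 and NEUROD6, and EPHA6, an ephrin receptor gene, by NEUROD2 and SLC17A6. EOMES and PPP1R17 had looser matches and shared none of these genes. The closest to EOMES were PARM1 (0.861), PPP4R4 (0.847), PDP1 (0.836) and NUPR2 (0.827), and to PPP1R17 they were WASF1 (0.831), GRAMD1B (0.822), PORCN (0.805) and MVB12B (0.805). With Spearman's rank correlation 0 of the 4 matches of EOMES, 3 of NEUROD2, 2 of NEUROD6, 2 of PPP1R17 and 3 of SLC17A6 stayed among the closest 4.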

How the data were processed

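The authors deposited read counts per gene and RPKM values for 38 libraries and 34619 genes. STAR and featureCounts were used, per the submitters' processing notes; their versions, genome build, annotation and strand setting are not given in the sources used here. Libraries were poly(A)-selected and stranded by the dUTP method, per the labels. Checked on 13494 genes, the authors' RPKM follow from the counts, library totals and 1 length per gene (largest coefficient of variation 4.1e-05). The closest of 703 library pairs differed by 9.89 times counting noise, and no library was counted as a repeat.

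The 10 genes, the gene lists and the comparisons were chosen with earlier results of these data known. Libraries were grouped by series and phase (12 groups), with days as replicates. Counts were tested in R 4.3.3 with edgeR 4.0.16 (filterByExpr with a minimum count of 10, 20794 genes tested, TMM, trended dispersions, robust quasi-likelihood tests, 1 fit of all 38 libraries), adjusted by Benjamini-Hochberg over these genes with a threshold of 0.05. Means over series had equal weights. Errors of fold changes are standard errors. Phase comparisons used group means (26 residual degrees of freedom). For age, region and change comparisons the day was fitted as a block (19), since the labels tie equal numbers to a shared day. Libraries of 1 day deviated together: of 55 pairs, 44 had a correlation of deviations over 0.1 (median 0.22, lowest -0.1, highest 0.68). No fold is given where a group had 0 counts throughout. A limit against such a group used 3 counts over the group, covers counting error only and is no interval over cultures. Antisense and overlapping genes cannot be told apart if counting ignored strand.

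Counts were simulated from these libraries, with 50 genes changed by each of 1.5, 2, 4 and 8 times. In terminal against stem over 4 series 50, 48, 50 and 50 were recovered, with 12 false calls. In E42 Posterior 13, 30, 50 and 50 were recovered, with 5 false calls. Recovery was not split by gene level, so it does not carry over to genes with few counts, such as NEUROG1, NEUROD1 and SLC17A7 at E77. Recovery where libraries of a day deviate together was not tested. The text names the 10 genes, up to 4 passing genes with the largest terminal against stem change of each list, and the 4 nearest patterns of 5 genes. Some genes of the lists are not reported here by name. Alternatives were other size factors and filters, DESeq2 1.42.0, limma 3.58.1 on log2 RPKM, subsets of days, series and libraries, and fits without the block.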

Additional observations from a re-analysis of the deposited data

Results flagged for a closer look

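In the terminal phase of E77 Occipital, 3 of 4 libraries had 0 counts of NEUROG1 and of SLC17A6, and the other had 1 count (0.0317 CPM on day 20 and 0.0361 CPM on day 17), so that the gap to the nearest library was 1 of the range for each. With 1 count in 1 library and 0 in the others the gap is always the whole range, and a single count carries no weight.

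The change from the stem to the terminal phase differed between groups, by a test of the difference, for 9 pairs of gene and comparison. Between E77 and E42 it was smaller at E77 for PPP1R17 (-2.15) and for SLC17A7 (adjusted p = 0.0021, no fold because E77 Occipital was at 0). SLC17A7 had at most 7 counts in a library at E77 and entered the test through its E42 libraries. Between E42 Anterior and E42 Posterior it was smaller in E42 Anterior for NEUROD1 (-2.33), NEUROD2 (-3.26), NEUROD6 (-3.71), SLC17A6 (-2.75) and SLC17A7 (-2.77). Between E77 Frontal and E77 Occipital, a comparison chosen after the data had been seen, it was smaller in E77 Frontal for PPP1R17 (-2.18) and larger for SLC17A6 (6.91). The last value rests on 5 counts in the stem and terminal libraries of E77 Occipital and was 3.44, with no usable error, without its day 1 library.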

How the results depend on the processing

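Over all alternatives other than single libraries, the called gene results gave 713 values, of which 667 kept their direction and their side of the threshold, 44 lost the threshold and 2 turned. The 2 that turned were for the pairs of series taken alone: EOMES in the stem phase (0.09, Frontal against Anterior) and PPP1R17 in the terminal phase (0.25, Occipital against Posterior). The order of the 4 series by mean level was the same in CPM and in RPKM for 30 of 30 sets of gene and phase. The design limits precision: 1 library per series and day, replicates that are days of a culture, and counts under 10 at E77 for NEUROG1, NEUROD1 and SLC17A7. Values when a library was left out used the dispersions of all libraries. The cause of the changes below was not tested.

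Without the replicate block (day in vitro), called genes among the 10 numbered 1, in place of 2, for the change difference of E77 minus E42 and 1, in place of 2, for that of E77 Frontal minus E77 Occipital. Over all genes, leaving the block out moved the change differences to 1131 calls from 2431 (E42 Anterior minus E42 Posterior) and to 317 from 1172 (E77 Frontal minus E77 Occipital). The comparison of E77 Frontal minus E77 Occipital had 1 of the 10 genes with no low-count filter, without day 20 or with limma on log2(RPKM + 1), and 647 genes without day 20. Limma on log2 RPKM tested 9 of the 10 genes. With log2(RPKM + 1) it also called 2 of these 9, in place of 5 of 10, for terminal against stem in E77 Frontal, and 1, in place of 3, in E77 Occipital (1 with log2(RPKM + 0.1) too). It called 3, in place of 6, for E77 Frontal against E77 Occipital. For the change of E77 minus E42 it called all 9 tested, in place of 2 of 10 (8 of 9 with log2(RPKM + 0.1)). Taking E77 Occipital against E42 Posterior alone, 6710, 6967 and 5706 genes were called in the stem, transition and terminal phases, in place of 12513, 11816 and 9353. With 1 value per day (log2 CPM averaged over the libraries of a day, tested with limma) 4069 and 2852 genes were called for transition against stem and terminal against transition, in place of 8655 and 8713. Leaving out 1 library gave 6 to 8 of the 10 genes for terminal against stem in E42 Anterior, 1 to 4 in E77 Occipital, and 1 to 2 genes of the 10 and 600 to 1670 of all genes for the change of E77 Frontal minus E77 Occipital.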
